A study of Mus musculus with 4 samples.

Results

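The genes described here are the EF-hand calcium-binding domain genes whose symbol begins with Efcab and a number, together with Efhb, EF-hand domain family member B. They were chosen by symbol, and no measured value entered the rule, though earlier results of these data were known. The tables held 12 of them among 22311 genes, each as a single entry per sample: Efcab1, Efcab2, Efcab3, Efcab4a, Efcab4b, Efcab5, Efcab6, Efcab7, Efcab8, Efcab9, Efcab10 and Efhb. RNA-seq had been made from whole testes of 24-day-old (P24) male mice, with 2 samples from Rfx2-/- mice (mutant) and 2 from control mice. The labels give the controls as wild type and the strain of all samples as DBA, whereas the study describes heterozygous controls on a mixed background, and the difference could not be resolved. The Rfx2 allele, which came from a single targeted embryonic stem cell clone, has exons encoding the DNA-binding domain replaced by a neomycin cassette, and all cells of the mutant animals carry it. The study chose the age because it found mutant spermiogenesis normal up to then, with mass detachment of round spermatids afterwards. It also reports that flagellum assembly was already blocked at P24. At an earlier age it reports more apoptotic germ cells and, in some mutants, delayed spermatogenesis. RNA came from all testicular cells. In such bulk RNA, fewer cells of a type and less RNA per cell cannot be told apart.

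The EF-hand is a helix-loop-helix fold whose loop can hold a calcium ion. Proteins that carry it serve as calcium sensors or as structural parts, and in the sperm flagellum they are found on the dynein arms, on the doublet microtubules and in the calcium channel of the principal piece. Several Efcab products have such a place: EFCAB1 (calaxin) is the calcium sensor of the outer dynein arm, EFCAB2 is a subunit of the nexin-dynein regulatory complex, EFHB lies inside the doublet microtubule, and EFCAB9 is the calcium and pH sensor of the CatSper channel. RFX2 is a transcription factor of pachytene spermatocytes, round spermatids and ciliated cells that binds the X-box, an imperfect inverted repeat. The comparison asks which of these genes changed in level when Rfx2 was disrupted.

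The targeted gene was read first. Rfx2 had 36.7 and 39.8 FPKM, fragments scaled to gene length and sequencing depth, in mutant 1 and mutant 2, against 123 and 89.4 in control 1 and control 2. It was lower by log2 -1.43 (SE 0.19, adjusted p = 0.00617, limma with Benjamini-Hochberg adjustment), a call lost in 3 alternatives given in the closing section. The intervals deposited with the values correspond to 17.2 to 20.3 M fragments per sample. Markers of spermatocytes and spermatids were high in all 4 samples, and no marker of a testicular cell type was at 0 in any sample. Of 53 markers tested in limma 0 were called, where 2.52% of all genes tested were called lower and 0.308% higher. With an unadjusted p under 0.05, 1 marker was lower and 0 higher, where 867 and 261 of the 12985 genes tested were. Mutant 1 stood apart in elongating spermatid markers, whose summed level was 2001 FPKM, against 7461 in mutant 2 and 6149 to 8949 in the controls. Its summed level of round spermatid markers was 568, against 986 in mutant 2 and 763 to 932 in the controls.

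Efcab10 was lower in the mutant testes by more than an order of magnitude, and Efcab1, at a far lower level, had both mutant samples below both controls. Of the 12 genes, 9 reached 1 FPKM in at least 2 of the 4 samples and were tested, and Efcab1, Efcab4a and Efcab4b were not. Efcab10 was the 1 gene of the 9 called lower, where 2.52% of the 12985 genes tested were called lower, and 0 of the 9 were called higher, where 0.308% were. At an unadjusted p under 0.05 in limma the counts were also 1 lower and 0 higher, where 867 and 261 of the 12985 genes were. The other 8 tested genes lay between -0.30 and -0.02 on the log2 scale, and no 95% interval among these reached below -0.96 or above 0.53. All 9 differences were below 0, as were 5542 of the 12985 over all genes. Their median was -0.24, beside 0.03 for all genes tested.

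**Figure D1:**
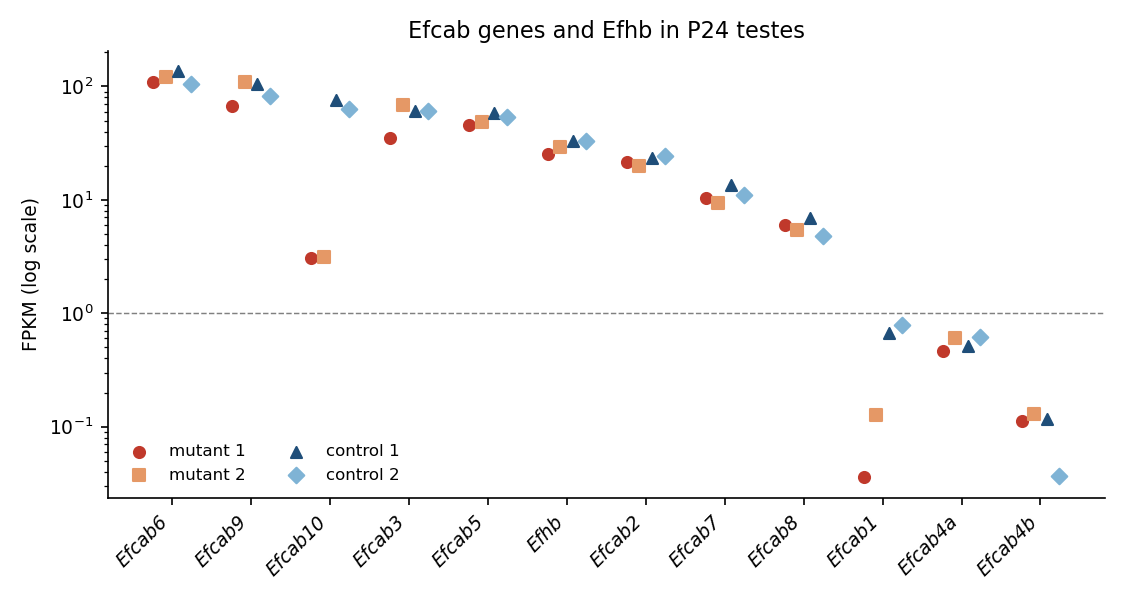
FPKM (log axis) of the 12 genes in each of the 4 P24 testis samples, ordered by the mean of the controls, with 1 point per sample and a dashed line at 1 FPKM. Efcab10 lies near 3 FPKM in both mutant samples and between 62.8 and 75.5 in the controls, both mutant samples of Efcab1 lie below its controls under 1 FPKM, and mutant 1 is the lowest point of Efcab3 and of Efcab9.

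In the control testes the genes spanned a wide range of levels per length. Efcab6 and Efcab9 were the highest, with means of 120 ± 22.8 and 93.3 ± 15.4 FPKM (SD, n = 2), and their replicates all but met, at 104 FPKM each. Efcab10 followed with 69.1 ± 9.002, then Efcab3 with 60.3 ± 0.328 and Efcab5 with 56.1 ± 2.84. The lowest Efcab10 control, 62.8, was only just above the higher of the Efcab3 controls, 60.6. Efhb (32.95 ± 0.222), Efcab2 (24.0 ± 0.807), Efcab7 (12.3 ± 1.74) and Efcab8 (5.84 ± 1.45) formed a lower series in which no replicates overlapped. Efcab1 (0.728 ± 0.0740), Efcab4a (0.567 ± 0.0734) and Efcab4b (0.0769 ± 0.0566) stayed below 1 FPKM. In mutant testes Efcab10 went from rank 3 to rank 9 of the 12 and Efcab1 from rank 10 to rank 12. The remaining genes kept their order among themselves.

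Efcab10 encodes a small predicted EF-hand protein. It is annotated in NCBIM37 (mm9) at chr12:34079719-34086134 on the plus strand, with 1 transcript of 675 exonic bases. Its level was 3.07 FPKM in mutant 1, 3.11 in mutant 2, 75.5 in control 1 and 62.8 in control 2. Both mutant samples were far below both controls and differed from each other by 0.01 on the log2 scale. The values rest on 44 and 38 fragments in the mutant testes and on 1026 and 901 in the control testes, as recovered from the intervals. The difference was -4.09 (95% interval -4.52 to -3.67, SE 0.18, adjusted p = 2.61e-05, limma with Benjamini-Hochberg adjustment) on the log2(FPKM + 1) scale, rank 30 from the lowest among the 12985 genes. On the linear scale the mutant mean was 4.47% of the control mean, or 22.4-fold lower. The level was as low in mutant 2 (-4.09 against the control mean) as in mutant 1 (-4.10). Mutant 1 was the sample with low summed spermatid markers, as given above. Any part of cell composition in the difference was not tested.

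Efcab1, the dynein arm calcium sensor, is annotated at chr16:14906730-14925972 on the plus strand. It had 0.0358 and 0.126 FPKM in mutant 1 and mutant 2, against 0.676 and 0.780 in the controls, and the groups did not overlap. Only 1 and 3 fragments stood behind the mutant values and 18 and 22 behind the control values, so the gene was below the level set for testing. The mutant level per sequenced fragment was 10.8% of the control level, with an exact 95% interval of 2.8% to 29.8% that covers counting error only. With no filter on low values, or with a filter at 0.1 FPKM, it was called lower in limma with Benjamini-Hochberg adjustment (adjusted p = 0.0397 and 0.0197). At these settings 199 of 19502 and 374 of 16746 genes were called lower. Its difference was -0.68 on the log2(FPKM + 1) scale, which understates the change of so low a gene.

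**Figure D2:**
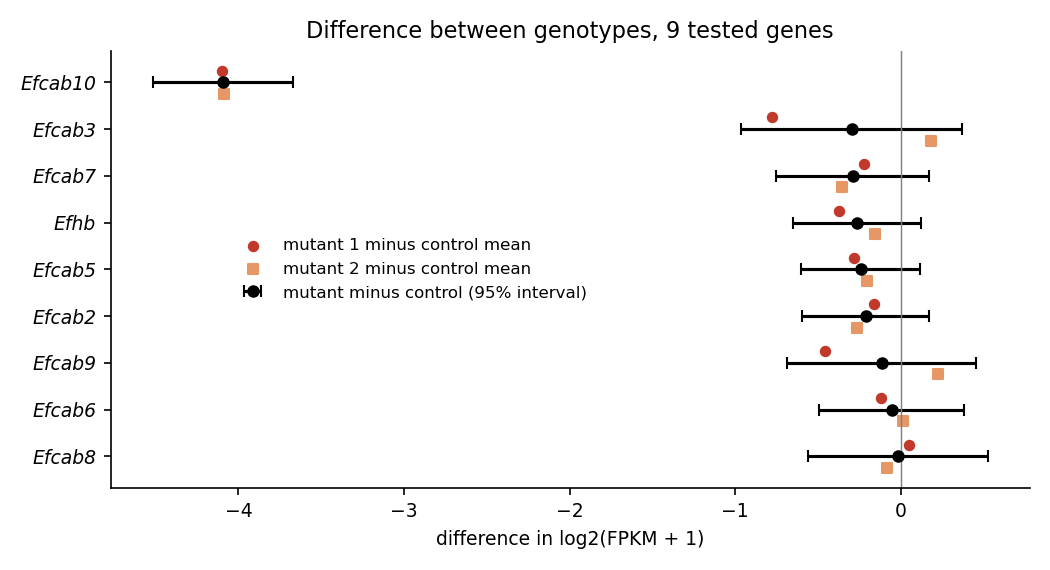
Difference in log2(FPKM + 1) between mutant and control testes for the 9 tested genes, with the 95% interval of the fit (black) and each mutant sample against the mean of the controls (red circles, mutant 1, and orange squares, mutant 2). Both mutant samples of Efcab10 lie near -4.1, while the intervals of the other 8 genes include 0 and the mutant samples of Efcab3 and Efcab9 fall on either side of it.

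Of the other genes with an axonemal place, Efcab2 of the nexin-dynein regulatory complex had 21.3 and 19.8 FPKM in the mutants against 23.4 and 24.5 in the controls. Both mutant samples were below both controls, by a difference of -0.21 (95% interval -0.59 to 0.17) that did not pass the test (adjusted p = 0.9999, limma). Efhb, of the doublet microtubule lumen, had 25.2 and 29.5 FPKM against 33.1 and 32.8. It too was lower in both mutant samples, by -0.26 (95% interval -0.65 to 0.12, adjusted p = 0.979, limma). Efhb lies on the same chromosome as Rfx2, 3.31 Mb away, and any part of the targeted chromosome in its value was not tested. Efcab6, whose product binds the androgen receptor and DJ-1, had 109 and 120 FPKM in the mutant testes, with control values of 136 and 104. These groups overlapped, with a difference of -0.06 (95% interval -0.49 to 0.38).

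Efcab5 and Efcab7 also had both mutant samples below both controls without passing the test. Efcab5 had 45.9 and 48.5 FPKM in the mutant testes, with control values of 58.1 and 54.1, a difference of -0.24 (95% interval -0.60 to 0.12, adjusted p = 0.995, limma). Efcab7, whose product ties the EVC complex to the base of the primary cilium in Hedgehog signalling, had 10.4 and 9.35 FPKM against 13.5 and 11.1, a difference of -0.29 (95% interval -0.75 to 0.17). With Efcab10, Efcab2 and Efhb, 5 of the 9 tested genes had both mutant samples below both controls, where 15.2% of all genes tested did. None, 0 of 9, had both above, where 16.3% of all genes did.

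Efcab9 and Efcab3 followed mutant 1. Efcab9, the CatSper sensor, had 67.3 FPKM in mutant 1 and 108 in mutant 2, against 104 and 82.4 in the controls. Efcab3 had 34.7 FPKM in mutant 1 and 68.7 in mutant 2, against 60.6 and 60.1. In both genes mutant 1 was the lowest and mutant 2 the highest of the 4 samples, so the groups overlapped. Their differences were -0.12 (95% interval -0.69 to 0.46) and -0.30 (95% interval -0.96 to 0.37). Against the control mean, Efcab3 was -0.78 in mutant 1 and 0.19 in mutant 2, and Efcab9 was -0.46 and 0.23. Mutant 1 was the sample with low summed spermatid markers, as given above, and the part of this in either gene was not tested. Fitted without mutant 2, Efcab3 was called lower (adjusted p = 0.00898, limma), and without mutant 1 it was not. In such a fit the lone mutant sample is assumed to vary as the controls do, and 948 of the 12985 genes were called lower without mutant 2, beside 327 with all samples.

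Efcab8 had 5.996 and 5.39 FPKM in the mutant testes, with control values of 6.86 and 4.81, with the mutant values between the control values and a difference of -0.02 (95% interval -0.56 to 0.53). Efcab4a and Efcab4b are the genes of regulators of store-operated calcium entry. Efcab4a had 0.469 and 0.602 FPKM against 0.515 and 0.619, and 44 fragments against 50 made the mutant level 94.7% of the control level (exact 95% interval 61.7% to 145%). It shares 455 exonic bases, 16.5% of its own, with the antisense RNA Gm10575, and whether the counting used strand is not given in the sources used here. Efcab4b had 0.111 and 0.131 FPKM against 0.117 and 0.0368, from 6 fragments in the mutant and 4 in the control samples. The exact 95% interval of its ratio, 38.3% to 778%, leaves a change in either direction undetectable at this depth.

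The X-box was searched by its standard pattern on both strands, with 0 to 3 bases between its arms, up to 1000 bases to either side of the first annotated start of each gene in NCBIM37. An exact match lay near Efcab1, Efcab6 and Efcab10, 3 of the 12 genes, and 3.84% of the 21401 genes with a position had one. The windows are shown because they hold a match to the X-box, the motif that RFX proteins bind, with the match in capitals. In Efcab10 it lies on the gene's own strand at 208 to 220 bases after the start (window chr12:34079918-34079946), in the 5′ UTR of the first exon and 16 bases before the coding sequence. In Efcab1 it lies at -48 to -35 on the opposite strand (chr16:14906674-14906703), and a second match that reads on both strands lies at -986 to -974 (chr16:14905736-14905764, plus strand printed). In Efcab6, a gene of the minus strand, it lies at 9 to 22 on the opposite strand (chr15:83895780-83895809), in an exon.
Efcab10: gctgcctgGTCGCCTAGCAACggctcagc
Efcab1 near: cagacagtGTGGCCATGGCAACgcctcagg
Efcab1 far: gccccataGTTACCTGGCAACagccaggt
Efcab6: aggacgctGTTGCCCCAGCAACcagggtac

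The genes with an exact match had unlike levels in the mutant. The mutant mean of Efcab10 was 4.47% and that of Efcab1 11.1% of the control mean, whereas that of Efcab6 was 95.5%. Within the narrower window from 250 bases before to 50 after the start, 2 of the 12 genes had an exact match, Efcab1 and Efcab6, beside 1.38% of all genes. Allowing 1 mismatch gave 7 of 12 genes beside 45.3% of all genes, so that such matches separate little. Efhb then had a match at -34 to -21 on both strands (chr17:53602659-53602688, minus strand printed), and its level was 83.0% of the control. A match is a description of the sequence, and binding was not measured in these files.
Efhb: ccaagtctGTTTCCCAGGTAACggaataaa

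The 250 bases before the starts of the lowered genes are given next, on the plus strand in NCBIM37. That of Efcab1 (chr16:14906480-14906729) holds the near X-box, in capitals and as read on the gene's own strand, and 56.8% of its bases are G or C. That of Efcab10 (chr12:34079469-34079718) holds no exact match, and 43.6% of its bases are G or C.
Efcab1 upstream: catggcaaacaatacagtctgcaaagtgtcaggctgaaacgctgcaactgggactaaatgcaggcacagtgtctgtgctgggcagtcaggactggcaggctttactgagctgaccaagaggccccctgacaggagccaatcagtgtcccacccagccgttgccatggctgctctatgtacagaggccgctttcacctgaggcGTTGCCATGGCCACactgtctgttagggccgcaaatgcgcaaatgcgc
Efcab10 upstream: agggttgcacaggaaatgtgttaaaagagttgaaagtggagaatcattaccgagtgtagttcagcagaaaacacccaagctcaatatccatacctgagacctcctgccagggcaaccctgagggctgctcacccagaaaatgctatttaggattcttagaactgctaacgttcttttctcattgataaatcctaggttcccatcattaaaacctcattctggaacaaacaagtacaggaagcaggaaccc

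**Figure D3:**
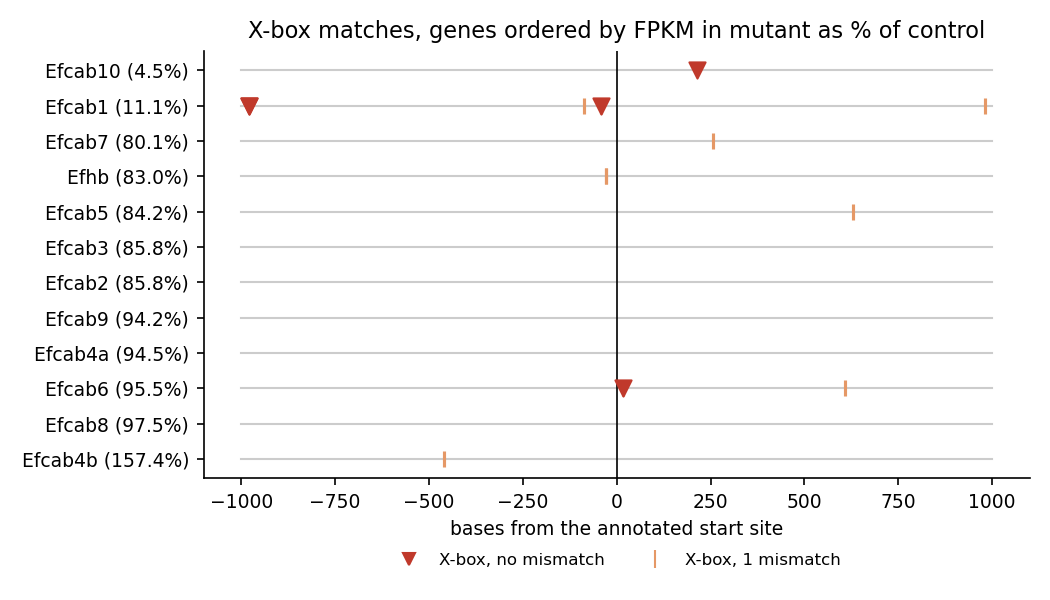
Position of X-box matches, in bases from the most upstream annotated start site, for the 12 genes ordered from the lowest to the highest mutant FPKM as a percent of control (in parentheses), with exact matches as red triangles and matches with 1 mismatch as orange bars. Efcab10 and Efcab1, at the top, hold exact matches, and so does Efcab6 at 95.5%.

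Canonical calcium-binding loops were counted with the PROSITE pattern of the EF-hand in translated GENCODE M1 transcripts. Efcab10 had 0 in 132 residues and Efcab1 had 3 in 212. Efcab6 had 4 in 1516 residues, Efcab3, Efcab4b, Efcab5, Efcab7 and Efhb had 1 each, and Efcab2, Efcab4a and Efcab9 had 0. No coding transcript was annotated for Efcab8. The pattern covers only the canonical loop and was read in the longest translation of each gene. A count of 0 therefore does not show that a protein lacks an EF-hand or calcium binding.

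The annotated neighbours of the lowered genes were read after their values were seen. Atxn7l1, which ends 19.2 kb before Efcab10 on the same strand, had 7.39 and 9.19 FPKM in the mutant testes, with control values of 24.7 and 22.6. It was lower by -1.41 (SE 0.19, adjusted p = 0.00628, limma). Twistnb, 28.4 kb beyond Efcab10, had 4.71 and 3.94 FPKM against 3.11 and 4.51, with overlapping groups. Of the neighbours of Efcab1, Ube2v2 was not called and Snai2 was too low to be tested. Another pair of Efcab genes was listed under older names and so fell outside the choice by symbol. Efcab11, listed as 2610021K21Rik, had 3.68 and 2.75 FPKM in the mutant testes, with control values of 4.66 and 4.25 (-0.38, SE 0.22, adjusted p = 0.921, limma). Efcab14, listed as 4732418C07Rik, had 11.7 and 10.7 against 9.13 and 11.4, with overlapping groups (0.12, adjusted p = 0.9999, limma).

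Efcab10 was set beside EF-hand genes of other names, 26 of which were tested. Among them 3 were lower and 0 higher in limma, where 2.52% and 0.308% of all genes tested were. With an unadjusted p under 0.05 the counts were 4 and 0, where 867 and 261 of the 12985 genes tested were lower and higher. In the list of axonemal and centriolar EF-hand genes, 2 of 7 tested were lower, and the median of the list was -0.09. Capsl, a calcyphosine-like protein, had 0.267 and 0.730 FPKM against 11.0 and 7.11 (-2.74, adjusted p = 0.00134, limma). Caps2, calcyphosine 2, had 0.960 and 0.350 FPKM against 4.82 and 4.23 (-1.76, adjusted p = 0.00692, limma). Capsl and Caps2 reached 1 FPKM, the level set for testing, only in the controls. Cetn1, the testis centrin and the list's highest gene, did not pass the test, with a difference of 0.17. In the list of other sperm and signalling EF-hand genes, 1 of 19 tested was lower, and the list's median was -0.06. This was Cib4, a calcium and integrin binding protein, with 7.13 and 2.33 FPKM against 25.1 and 22.7 (-2.26, adjusted p = 0.0189, limma), while Calm2, a calmodulin gene and the highest of the list, differed by 0.13 without passing.

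The complexes in which Efcab products sit are given next, and of all genes tested 2.52% were called lower and 0.308% higher. The partners of EFCAB1, the docking proteins of the outer dynein arm, had 2 of 5 tested genes lower, Armc4 (-2.58) and Ttc25 (-1.20), with a median of -0.26. Ccdc63, the highest by the mean of all 4 samples though below Ttc25 in the controls, was not called at -0.26. The nexin-dynein regulatory complex, which holds EFCAB2, had 5 of 10 lower and a median of -0.72. Ccdc164 (-5.17), Ccdc135 (-4.17), Ccdc65 (-2.82) and Gas8 (-1.37) were the largest falls in it, whereas Efcab2 was not called. Ccdc135 here and Ccdc11 of the next list reached 1 FPKM only in the controls. The inner proteins of the doublet, the company of EFHB, had 6 of 17 lower and 1 higher, with a median of -0.33. Tekt4 (-5.38), Ccdc11 (-5.20), Spag8 (-4.00) and Ccdc19 (-2.51) led the fall, Ribc2 was the gene that rose (0.93, adjusted p = 0.0222, limma), and Mns1, the highest, was not called at 0.47. Armc4, Ccdc65, Ccdc135, Ccdc164, Tekt4 and Spag8 are among the genes the study itself picked out of these samples, so that these counts are not independent evidence of direction.

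In the CatSper channel, which holds EFCAB9, 0 of 8 tested genes were called in either direction in limma, also at an unadjusted p under 0.05, with a median of -0.20 and Catsper2, the highest, at -0.22. In store-operated calcium entry, the pathway of Efcab4a and Efcab4b, 1 of 5 was lower. This was the channel gene Orai2, with 0.802 and 0.565 FPKM in the mutant testes and control values of 3.70 and 3.22 (-1.41, adjusted p = 0.00895, limma). Orai2 reached 1 FPKM only in the controls. The calcium sensor Stim1, the highest, was not called at 0.02. In the EVC complex, the site of EFCAB7, 0 of 2 tested genes were called in limma, and 0 at an unadjusted p under 0.05, with Iqce the higher of them at -0.28. Over all these partner and EF-hand genes, an exact X-box match was found in 3 of the 17 lower genes. It was also found in 8 of the 58 that were not called or not tested, beside 3.84% of all genes with a position. No exact match was found near Ccdc65, whose promoter the study reports as bound by RFX2, so lack of a match does not show lack of binding. Among the lower EF-hand genes Caps2 and Cib4 had a match and Capsl had none, and Pef1 had a match without being called.

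**Figure D4:**
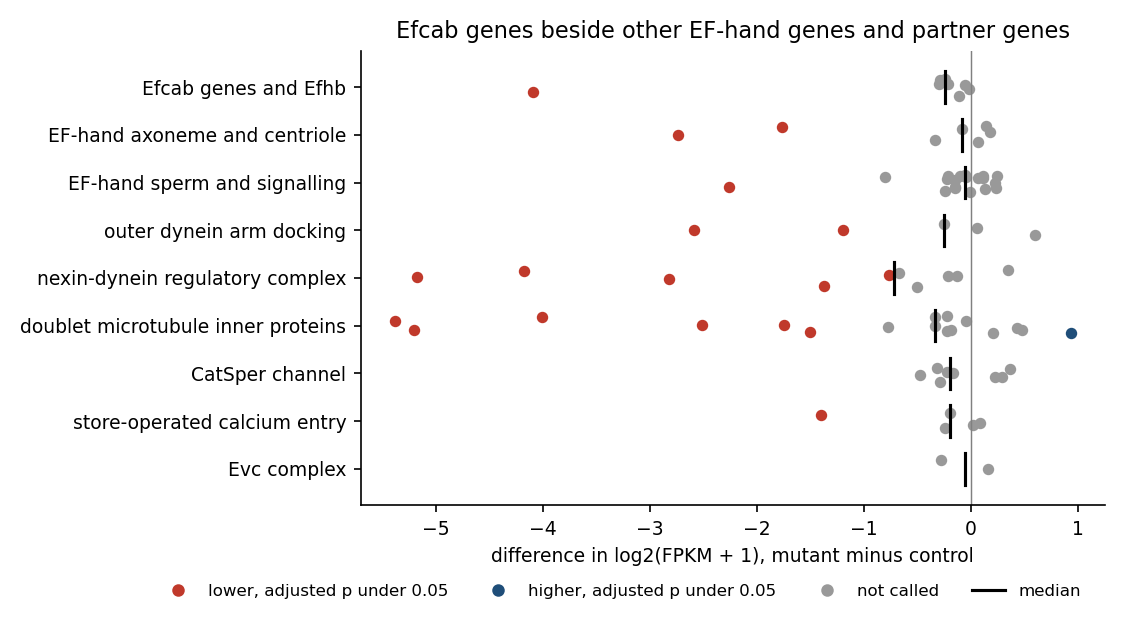
Difference in log2(FPKM + 1), mutant minus control, of each tested gene in the Efcab group and in 8 lists of other EF-hand genes and partner genes, with genes called lower in red, called higher in blue and not called in grey, and the median of each list as a black bar. Efcab10 stands alone on the left of the Efcab row, while the nexin-dynein regulatory complex and the doublet inner proteins have several genes below -4.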

How the data were processed

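RNA-seq had been made from the testes of 2 Rfx2-/- and 2 control mice. The authors had used TopHat2 2.0.6 for alignment to mm9, and the deposited values are FPKM per gene, normalized by the authors for length and depth, with the bounds of a confidence interval. The Cuffdiff comparison of the study, made on pooled replicates, cannot be repeated from FPKM.

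Values of entries sharing a symbol were summed. Genes with at least 1 FPKM in at least 2 samples were tested on log2(FPKM + 1), comparing the genotypes with limma 3.58.1 (R 4.3.3, functions lmFit and trended eBayes), two-sided, with Benjamini-Hochberg adjustment over all genes and a threshold of 0.05. The pseudocount of 1 understates the changes of low genes. The procedure was tested on simulated data. The study describes the 2 samples of a genotype as independent biological replicates, and the labels add only replicate numbers. The p-values, SEs and intervals of the fit rest on the spread between these samples, moderated with that of all genes tested. They do not measure the spread of a single gene alone. The interval width gives the fragments behind a value, and under 30 fragments 77.8% to 78.9% of entries were whole within 0.05. Intervals for ratios are exact binomial (95%) and cover counting error only. Positions and sequences were read from NCBIM37 with GENCODE M1. The RefSeq promoter table matched 5 of the 12 symbols and was not used for the sequences.

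Named genes are every Efcab gene and Efhb, Rfx2, up to 4 called genes by size and the highest gene of each partner list, and Efcab genes under older symbols. Ribc2 and the neighbouring genes were added after their values were seen. A gene of the partner lists is not reported here and was left out of their counts. The genes and lists were chosen with earlier results of these data known. Alternatives changed the pseudocount, filter, scaling, variance model, handling of shared symbols, replicate block and samples left out. Other steps used pandas 2.3.3, numpy 2.4.6, scipy 1.17.1 and matplotlib 3.10.9 under python 3.11.15.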

Additional observations from a re-analysis of the deposited data

How the results depend on the processing

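Efcab10 stayed lower in all 12 alternatives on the 4 samples, with differences from -4.47 to -4.04 and adjusted p of at most 0.00534 (limma, Benjamini-Hochberg), and from -4.22 to -3.96 when a sample was left out. The number of genes called lower was 2 in place of 1 with no filter and with a filter at FPKM 0.1, where Efcab1 was added. Over all genes, 199 of 19502 were called lower with no filter and 374 of 16746 with the filter at FPKM 0.1. Without mutant replicate 2, Efcab3 differed by -0.78. The number called higher stayed at 0 throughout, and the median of the tested genes ranged from -0.28 to -0.16. With 1 mismatch allowed, 7 genes had an X-box. Rfx2 was no longer called with no filter (-1.43, adjusted p = 0.0607), with median-ratio scaling (-1.45, adjusted p = 0.0829) and without control replicate 1, its range with a sample left out being -1.66 to -1.20. Directions turned when a sample was left out for Efcab3 (-0.78 to 0.19), Efcab6 (-0.25 to 0.14), Efcab8 (-0.23 to 0.20) and Efcab9 (-0.46 to 0.23), and for Efcab8 under quantile normalization (0.0408). The cause was not tested. Neither the labels nor the study say that the replicate numbers pair the samples. The correlation of deviations was -0.15 over 12985 genes, which cannot decide it, as it rests on a single difference per genotype. With the replicate block Efcab10 stayed at -4.09, and 1 of the 9 genes was called, where 525 of 12985 genes were called lower. With the numbers crossed, an alternative added after the data were seen, 1 was also called, where 266 of 12985 genes were called lower. The fit with the replicate block and the fits without a mutant sample give implausibly small p-values, and the cause was not tested. In a fit that leaves a genotype with 1 sample, that sample is assumed to vary like the other genotype. Efcab1, Efcab4a and Efcab4b are limited by depth, and 2 samples per genotype limit every interval.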
